A study of Homo sapiens with 6 samples.

Results

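The genes described here are 8 enzyme genes of proline synthesis and of glutamine and glutamate metabolism, PYCR1, PYCRL, ALDH18A1, OAT, GLUL, GLUD1, GOT1 and GOT2. They were taken by symbol from a table of 26364 genes, and all 8 were found and passed the filter on low values. They were measured by RNA-seq in MV4-11, a human leukaemia line of acute myeloid type, long established in culture, that carries an internal tandem duplication of the receptor kinase gene FLT3. Cells were given 22d, known as an inhibitor of the deacetylase HDAC8, at 10 nM (3 libraries), or the vehicle DMSO (3 libraries), and RNA was taken after 18 hours. Both groups grew in the same serum-containing medium with added L-glutamine. The comparison asks which transcripts differ after 22d. The labels do not say whether the numbered libraries were grown as separate cultures, so a p-value here reflects only how much these libraries vary, and that variation may be technical. The genes were listed by pathway and selected on the fold changes of this same comparison in the deposited table, where PYCRL stood among the genes with the deepest falls. Their values are therefore given as a description, with no test of their own.

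Cells build proline from glutamate. The enzyme of ALDH18A1 turns glutamate into pyrroline-5-carboxylate, the reductases of PYCR1 and PYCRL reduce that compound to proline, and the enzyme of OAT links it to ornithine. Glutamate in turn is joined with ammonia to form glutamine by the synthetase of GLUL, is deaminated to 2-oxoglutarate by the dehydrogenase of GLUD1, and exchanges its amino group with aspartate through the aminotransferases of GOT1 in the cytosol and GOT2 in mitochondria. Proliferating cells, leukaemia cells among them, are known to draw on glutamine as a source of carbon and nitrogen.

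The libraries held between 19995430 and 23749257 reads in genes. A normalized count is a read count divided by a size factor of its library, which makes 1 read worth 0.839 to 1.14 units. 22d replicate 3 had reads in 19285 genes, against 16268 to 17055 in the other 5 libraries. The 9 myeloid markers listed for MV4-11 all had reads in every library. Their summed level was 43998 to 55588 normalized counts in the 22d libraries and 70759 to 89295 in the DMSO libraries, but the difference lay in the lysozyme gene LYZ (16624 normalized counts on average with 22d and 44816 with DMSO): without it the sums were 32591 to 34316 with 22d and 31213 to 37392 with DMSO. Of the 9 markers, 2 rose, PTPRC (log2 fold change 1.63) and FLT3 (0.42). The 2 that fell were MPO (-2.59), which is scarce in the sum, and LYZ (-1.46), and 5 did not pass. Of 9 markers of other cell types, 8 averaged under 10 normalized counts, 2 of them at 0 in every library, and PECAM1, a marker of endothelial cells that myeloid cells also carry, was the exception. The summed level of these 9 was 504 to 585 normalized counts with 22d and 215 to 315 with DMSO. Most of it was PECAM1, at 582, 496 and 510 normalized counts with 22d and 312, 222 and 213 with DMSO. PECAM1 rose (log2 fold change 1.10, SE 0.16, limma adjusted p = 7.2e-05). The part of these markers in the results was not tested. In bulk RNA, fewer cells with a transcript and less of it per cell cannot be told apart.

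With 22d, 6 of the 8 genes were lower and 0 were higher in limma's fit across all genes, at a Benjamini-Hochberg adjusted p under 0.05. In that fit 58% of the 13297 genes tested were called in either direction and 29.6% were called lower, and the count among the enzymes carries no weight since they were chosen with this comparison known. Of all calls 49.0% were higher, against 65.6% with scaling by library totals, which moved the median log2 fold change of all genes to 0.22. The deepest difference was that of PYCRL, followed by PYCR1 and ALDH18A1, all on the route from glutamate to proline. GOT2 stood lower by less, OAT and GLUD1 lower by less again, and GLUL and GOT1 were not called. The median log2 fold change of the 8 genes was -0.72, beside 0.01 over all genes tested. For 6 of the 8 genes every 22d library was lower than every DMSO library, as for 33.3% of all genes tested, and 65.4% of all genes had groups apart in either direction. Unless another tool or the authors' table is named, a log2 fold change is on the scale of log2(normalized count + 1), which understates the change of scarce genes.

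**Figure D1:**
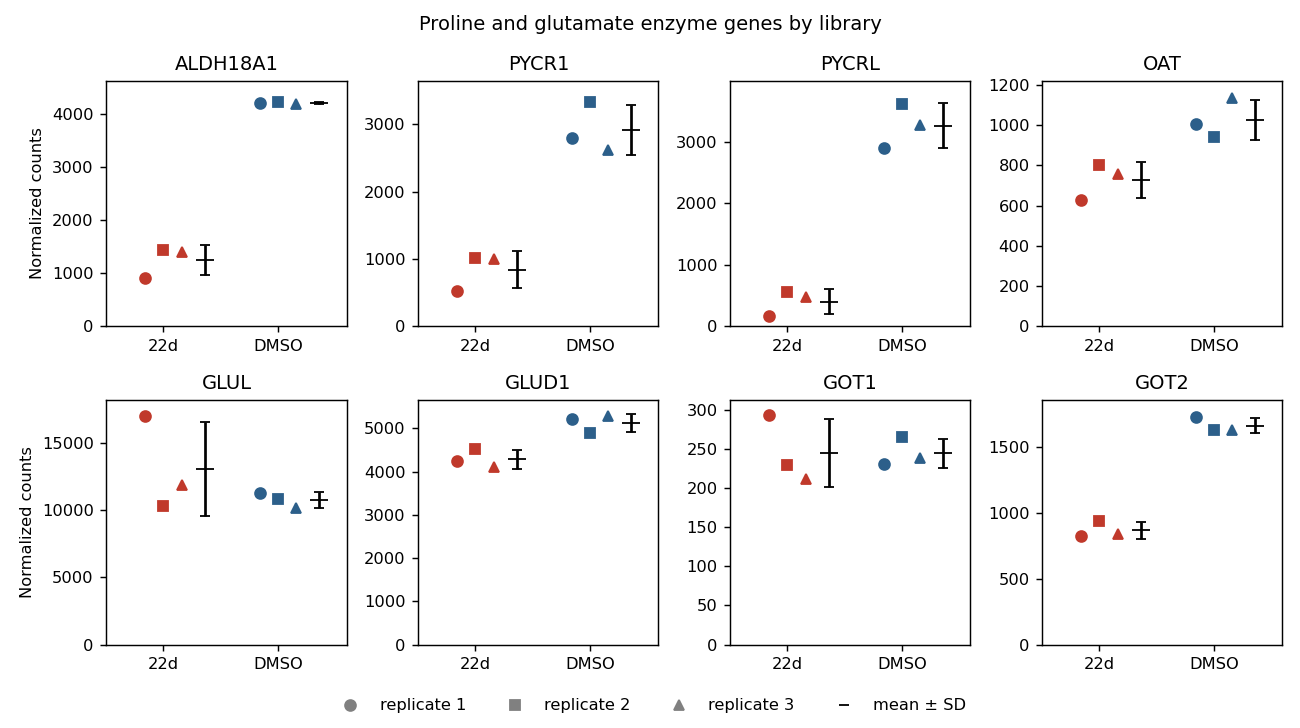
Normalized counts (y axis, from 0, own scale per gene) of the 8 enzyme genes in the 3 libraries with 22d and the 3 with DMSO, with symbols for replicate numbers and mean ± SD (n = 3 each) in black. For ALDH18A1, PYCR1, PYCRL, OAT, GLUD1 and GOT2 every 22d library lies under every DMSO library; for GLUL and GOT1 the groups overlap, and 22d replicate 1 is the highest library of both.

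ALDH18A1 encodes the bifunctional synthase that commits glutamate to proline and ornithine (chromosome 10, 95605941 to 95656711, minus strand, GRCh38.p14). It held 911, 1441 and 1388 normalized counts in 22d replicates 1 to 3, against 4209, 4239 and 4195 in DMSO replicates 1 to 3. The DMSO libraries were nearly level with each other, and every 22d library lay far under them. The log2 fold change was -1.79 (SE 0.15), and the 22d mean was 29.6% of the DMSO mean.

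PYCR1 encodes a mitochondrial reductase that performs the last step of proline synthesis (chromosome 17, 81932391 to 81937300, minus strand). Its libraries held 516, 1010.3 and 992 normalized counts with 22d and 2796, 3332 and 2627 with DMSO. All 22d libraries were lower, and replicate 1 was the lowest of them. The log2 fold change was -1.85 (SE 0.21). In GENCODE 29 its exons share 408 bases with MYADML2 on the same strand and 450 bases with an antisense transcript, and the strand setting of the counting is not given in the sources used here, so reads from these stretches of its 2886 exon bases are uncertain.

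PYCRL, now named PYCR3, encodes the cytosolic form of the reductase (chromosome 8, 143603210 to 143609575, minus strand). It held 168, 548 and 480.2 normalized counts with 22d, against 2900, 3631 and 3277 with DMSO. Even the highest 22d library lay far below the lowest DMSO library, and replicate 1 with 22d lay far below the other two. The group means were 399 ± 203 in 22d libraries and 3269 ± 366 in DMSO libraries (SD, n = 3 each), so that the 22d mean was 12.2% of the DMSO mean. The log2 fold change was -3.20 (SE 0.32), and -2.66 without 22d replicate 1. In the authors' deposited table it was -2.56, while DESeq2 on the read counts recovered from the same values gave -3.03.

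The ratio of PYCRL to PYCR1 counts was 0.326, 0.543 and 0.484 in the 22d libraries, against 1.04, 1.09 and 1.25 in the DMSO libraries. The groups did not overlap, so the cytosolic form was lower relative to the mitochondrial form in every 22d library. This ratio was also lowest in 22d replicate 1, the library in which both genes were lowest.

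OAT encodes the mitochondrial ornithine aminotransferase (chromosome 10, 124397303 to 124418923, minus strand). It held 629.6, 799 and 755 normalized counts with 22d and 1005, 939 and 1136 with DMSO. The groups did not overlap, but the highest 22d library came close to the lowest DMSO library. The log2 fold change was -0.50 (SE 0.13); with scaling by library totals it was -0.28 and no longer past the threshold. The ratio of ALDH18A1 to OAT counts was 1.45, 1.80 and 1.84 in the 22d libraries, against 4.19, 4.51 and 3.69 in the DMSO libraries. The ratio was lower in every 22d library than in any DMSO library.

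GLUL, the gene of glutamine synthetase (chromosome 1, 182378098 to 182391790, minus strand), did not follow the proline genes. It held 17008, 10337 and 11905 normalized counts with 22d and 11267, 10871 and 10139 with DMSO. 22d replicate 1 alone lay above all other libraries, and the remaining 22d libraries overlapped those with DMSO. The log2 fold change was 0.25 (SE 0.15), and 0.05 without 22d replicate 1. It passed the threshold as higher without 22d replicate 2 (0.40), with scaling by library totals (0.47) and with quantile normalization (0.59).

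GLUD1, the gene of mitochondrial glutamate dehydrogenase (chromosome 10, 87050202 to 87094843, minus strand), held 4234, 4514 and 4095 normalized counts with 22d and 5209.6, 4889 and 5276 with DMSO. Every 22d library was lower, by a narrow margin. The log2 fold change was -0.26 (SE 0.10), and its call held in 6 of 17 alternative settings. Leaving out any 1 library but DMSO replicate 2 ended the call, at values of -0.30 to -0.23, and quantile normalization gave 0.05. Its exons share 464 bases with SHLD2 on the opposite strand. GLUD1P3, a pseudogene copy of GLUD1 whose reads the counting may not fully separate, held 302, 319 and 364 normalized counts with 22d and 185, 247 and 177 with DMSO, and rose (log2 fold change 0.70, SE 0.16, limma adjusted p = 0.0024). Gene and copy thus went opposite ways, and the ratio of GLUD1 to GLUD1P3 was 13.1 ± 1.64 in 22d libraries and 25.9 ± 5.39 in DMSO libraries (SD, n = 3 each).

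The aspartate aminotransferases differed from each other. GOT2, the mitochondrial form (chromosome 16, 58707131 to 58734316, minus strand), held 825, 939 and 838 normalized counts with 22d and 1729, 1635 and 1633 with DMSO. All 22d libraries lay well under all DMSO libraries, at a log2 fold change of -0.94 (SE 0.11). GOT1, the cytosolic form (chromosome 10, 99396870 to 99430624, minus strand), held 293, 229 and 211 normalized counts with 22d and 229.9, 265 and 238 with DMSO. The groups overlapped, and the log2 fold change was -0.01 (SE 0.16), between -0.15 and 0.09 with 1 library left out and 0.21 with scaling by library totals. The ratio of GOT2 to GOT1 counts was 2.81, 4.10 and 3.98 in the 22d libraries and 7.52, 6.18 and 6.86 in the DMSO libraries, with no overlap. GOT1 shares 651 exon bases, and GOT2 162, with transcripts on the opposite strand.

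Sequences before the start of transcription are shown for the gene at the head of proline synthesis and for the aminotransferase pair, which lay so differently between the groups. RefSeq promoters on GRCh38.p14 were used for 6 of the 8 genes. Those of PYCRL and PYCR1, the genes with the deepest differences, were not searched. The 250 bases before each start were searched on both strands for 3 motifs, chosen with the values and the sequences known. CACGTG is the E-box that MYC and its partners bind, TGACGT the core of sites of CREB and ATF factors, and TGATGNAA part of an element bound by ATF4 with C/EBP partners. Capitals mark the matches, and each sequence runs 5′ to 3′ on the minus strand, at chr10:95656712-95656961 for ALDH18A1, chr16:58734317-58734566 for GOT2 and chr10:99430625-99430874 for GOT1.
ALDH18A1: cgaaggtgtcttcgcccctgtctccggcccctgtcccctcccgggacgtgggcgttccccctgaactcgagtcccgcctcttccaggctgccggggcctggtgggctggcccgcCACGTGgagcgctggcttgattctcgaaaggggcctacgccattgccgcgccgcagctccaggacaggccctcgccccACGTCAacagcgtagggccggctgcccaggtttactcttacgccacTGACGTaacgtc
GOT2: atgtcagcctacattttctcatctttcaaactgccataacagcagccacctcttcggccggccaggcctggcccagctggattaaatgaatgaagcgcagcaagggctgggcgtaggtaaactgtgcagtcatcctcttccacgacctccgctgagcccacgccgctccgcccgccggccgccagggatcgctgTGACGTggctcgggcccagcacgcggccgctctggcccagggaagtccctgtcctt
GOT1: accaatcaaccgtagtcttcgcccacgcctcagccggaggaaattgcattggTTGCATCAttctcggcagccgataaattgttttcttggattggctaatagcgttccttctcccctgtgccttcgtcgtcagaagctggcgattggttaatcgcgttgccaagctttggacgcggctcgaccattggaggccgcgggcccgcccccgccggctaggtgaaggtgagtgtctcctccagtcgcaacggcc
The ALDH18A1 window holds 1 CACGTG, 136 bases before the start, and 2 copies of TGACGT, 1 of them on the other strand. The GOT2 window holds 1 TGACGT and the GOT1 window 1 TGATGNAA, read on the other strand. The windows of OAT, GLUL (2 start sites) and GLUD1 hold none of these motifs, so the sequences shown are those of the searched genes with a match. Of 35116 promoter windows of the same length, 6.34% hold CACGTG, 7.10% TGACGT and 3.14% TGATGNAA. No motif overlapped another in these windows, and a match is a description of letters, not a site.

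The levels of the 8 genes were ordered per exon length, in normalized counts per kilobase. With 22d the order ran from GLUL (1449 ± 386) and GLUD1 (1217 ± 60.6) through ALDH18A1 (331 ± 77.5), PYCR1 (291 ± 97.1), GOT2 (230.3 ± 16.6) and OAT (215 ± 26.0) to PYCRL (123 ± 62.5) and GOT1 (72.5 ± 12.9; SD, n = 3 each). With DMSO it ran from GLUD1 (1456 ± 58.9) and GLUL (1191 ± 63.3) through ALDH18A1 (1119 ± 6.05), PYCR1 (1011 ± 128), PYCRL (1008 ± 113), GOT2 (442 ± 14.5) and OAT (303 ± 29.7) to GOT1 (72.5 ± 5.42; SD, n = 3 each). With DMSO, PYCRL and PYCR1 differed by less than the SD of either, and PYCR1 and ALDH18A1 by less than the SD of PYCR1 but by more than that of ALDH18A1. With 22d these 3 genes stood well apart from GLUD1 and GLUL, and the neighbours that differed by less than the larger SD of the pair were GLUL and GLUD1, ALDH18A1 and PYCR1, PYCR1 and GOT2, GOT2 and OAT, and PYCRL and GOT1. Part of this order depends on the length used. Per kilobase of the longest protein-coding transcript, PYCR1 averaged 441 with 22d and 1533 with DMSO, above ALDH18A1 at 371 with 22d and 1255 with DMSO, and PYCRL averaged 149 with 22d and 1221 with DMSO. By that length OAT (355) and GOT2 (352) changed places with 22d. GLUL averaged 2773 with 22d and 2279.96 with DMSO, above GLUD1 at 1409 with 22d and 1686 with DMSO.

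The 3 libraries with 22d did not agree on the size of these differences. 22d replicate 1 was the lowest of the 22d libraries for 5 of the 8 genes, as it was for 64.3% of the 3934 genes called lower and 39.4% of all genes tested. The log2 distance from replicate 1 to the mean of replicates 2 and 3 was -1.60 for PYCRL, a value that only 0.489% of tested genes lay below. That distance was -0.95 for PYCR1 (2.48% of genes lay below) and -0.63 for ALDH18A1 (6.23%). It was 0.62 for GLUL and 0.42 for GOT1, above 96.5% and 90.8% of tested genes, and -0.02 for GLUD1. PYCRL, PYCR1 and ALDH18A1 thus stood lowest, and GLUL and GOT1 highest, in the same library. Among transcription factor genes listed as background, MYC held 6549.9, 10694 and 12021 normalized counts with 22d and 17223, 17575 and 15582 with DMSO, and was at -0.79 on the same measure. The stress factor gene DDIT3 held 534, 306 and 279.5 normalized counts with 22d and 149, 131 and 183 with DMSO, at 0.87 on that measure. MYC was thus lowest, and DDIT3 highest, in the same 22d library. The part of this library in the results was not tested beyond leaving it out: without it the log2 fold changes were -1.54 for PYCR1 and -1.57 for ALDH18A1.

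**Figure D2:**
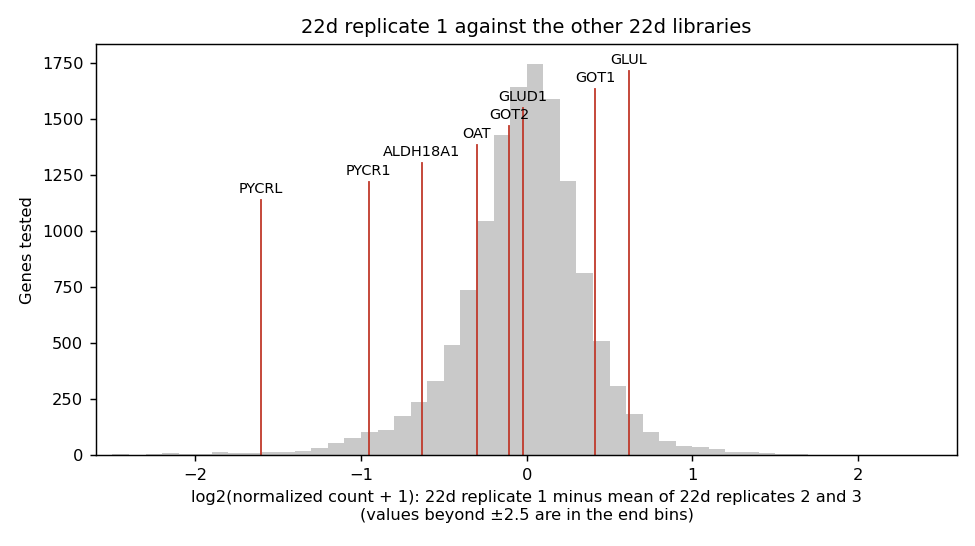
Histogram over the 13297 tested genes of the log2(normalized count + 1) value in 22d replicate 1 minus the mean of 22d replicates 2 and 3 (x axis), with the number of genes on the y axis and red lines at the 8 enzyme genes. PYCRL at -1.60 lies in the far lower tail, PYCR1 and ALDH18A1 follow at -0.95 and -0.63, and GLUL lies in the upper tail at 0.62.

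Among the other genes of the pathway, 57 were listed and 51 tested; 24 fell, 8 rose and 19 did not pass. The number that rose was 4 without DMSO replicate 3 and 5 without DMSO replicate 1, 22d replicate 2 or 22d replicate 3, and it was 15 with scaling by library totals. The shares of all tested genes called were 29.6% lower and 28.5% higher, and the counts of each list below stand beside these same shares. The median log2 fold change of the 51 was -0.44. Of 7 listed proline and ornithine enzymes 4 were tested, 1 fell and 0 rose. ALDH4A1, the mitochondrial dehydrogenase that returns pyrroline-5-carboxylate to glutamate, averaged 1546 ± 249 normalized counts with 22d and 2538 ± 356 for DMSO (SD, n = 3 each), and fell (log2 difference -0.72, SE 0.14, limma adjusted p = 0.00066). PRODH, whose enzyme begins proline breakdown, was scarce, at 14.7, 26.5 and 23.5 normalized counts with 22d and 17.1, 8.27 and 8.78 with DMSO, and did not pass (0.90, SE 0.40, limma adjusted p = 0.071). It passed without 22d replicate 1 (1.14), without DMSO replicate 1 (1.20) and with scaling by library totals (1.10). PEPD, which encodes the dipeptidase that frees proline, and the arginase gene ARG2 did not pass either (-0.14, SE 0.11, and -0.45, SE 0.20), though ARG2 passed with quantile normalization (-0.67). PRODH2 and OTC were at 0 in every library, and ARG1 averaged 2.71 normalized counts with 22d and 3.61 with DMSO.

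Of 13 listed glutamine and glutamate enzymes 12 were tested, 4 fell and 3 rose. The genes that fell encode aminotransferases. PSAT1, which uses glutamate to make phosphoserine, fell most, to 423, 698 and 546 normalized counts with 22d, against 2267, 2731 and 2671 with DMSO (log2 difference -2.22, SE 0.16, limma adjusted p = 2.5e-07). GPT2, the mitochondrial alanine aminotransferase gene, fell by 1.39 and the branched-chain aminotransferase genes BCAT1 and BCAT2 by 1.33 and 0.85 on the log2 scale. The genes that rose were ABAT (0.83, SE 0.15), which encodes the aminotransferase of the transmitter GABA, OPLAH (0.81, SE 0.16), which encodes the enzyme that frees glutamate from oxoproline, and GLS2 (0.44, SE 0.18, limma adjusted p = 0.0497), a glutaminase gene. The GLS2 call was lost in 12 of 17 alternative settings, at an adjusted p of 0.054 to 0.15 with 1 library left out. The log2 fold changes of the alanine aminotransferase gene GPT (0.33), the decarboxylase gene GAD1 (0.07), the second dehydrogenase gene GLUD2 (-0.83) and the kynurenine aminotransferase genes CCBL1 (0.25) and CCBL2 (0.21) did not pass. GPT passed without 22d replicate 1 (0.59), and CCBL2 (0.38) and GLUD2 (-1.27) without 22d replicate 3. Scaling by library totals also let GPT (0.55) and CCBL2 (0.43) pass. TAT was at 0 in every library.

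Of 9 tested glutamine amidotransferase genes, whose enzymes take nitrogen from glutamine, 5 fell and 1 rose. PFAS and CAD, of purine and pyrimidine synthesis, fell by 2.09 (SE 0.17) and 1.84 (SE 0.14) on the log2 scale, and CTPS1, which makes CTP, by 1.45 (SE 0.13). Of 7 genes for enzymes that join glutamate, glutamine or proline to another molecule, 3 fell and 1 rose. GCLC, which encodes the catalytic subunit of glutamate-cysteine ligase, rose by 1.38 (SE 0.15), the mitochondrial glutamyl-tRNA synthetase gene EARS2 fell by 1.01 (SE 0.12) and the folate polyglutamation gene FPGS by 0.88 (SE 0.14).

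Of 11 tested transporter genes 5 fell and 3 rose. SLC38A5, which encodes a glutamine carrier, fell to 69.4, 196 and 159 normalized counts with 22d, against 1845, 1616 and 1357 with DMSO (log2 fold change -3.61, SE 0.28, limma adjusted p = 4.8e-07). The amino acid exchanger gene SLC7A5 fell by 1.34 (SE 0.26), whereas the cystine and glutamate exchanger gene SLC7A11 rose by 1.59 (SE 0.18). Without 22d replicate 1 the log2 fold changes were -3.17 for SLC38A5, -0.94 for SLC7A5 and 1.51 for SLC7A11. In the authors' deposited table they were -3.07, -1.12 and 1.57, and with DESeq2 on the recovered read counts -3.50, -1.25 and 1.63. Of 8 genes of the malate-aspartate shuttle and the mitochondrial glutamate and ornithine carriers, to which GOT1 and GOT2 belong by function, 6 fell and 0 rose. The oxoglutarate carrier gene SLC25A11 fell by 1.08 (SE 0.12), the ornithine carrier gene SLC25A15 by 0.97 (SE 0.14) and the glutamate carrier gene SLC25A22 by 0.87 (SE 0.13). The mitochondrial malate dehydrogenase gene MDH2 fell by 0.71 (SE 0.10), while the cytosolic MDH1 did not pass (-0.25, SE 0.13, limma adjusted p = 0.10), beside GOT2 at -0.94 and GOT1 at -0.01. The reductase pair went the other way, with cytosolic PYCRL at -3.20 and mitochondrial PYCR1 at -1.85.

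**Figure D3:**
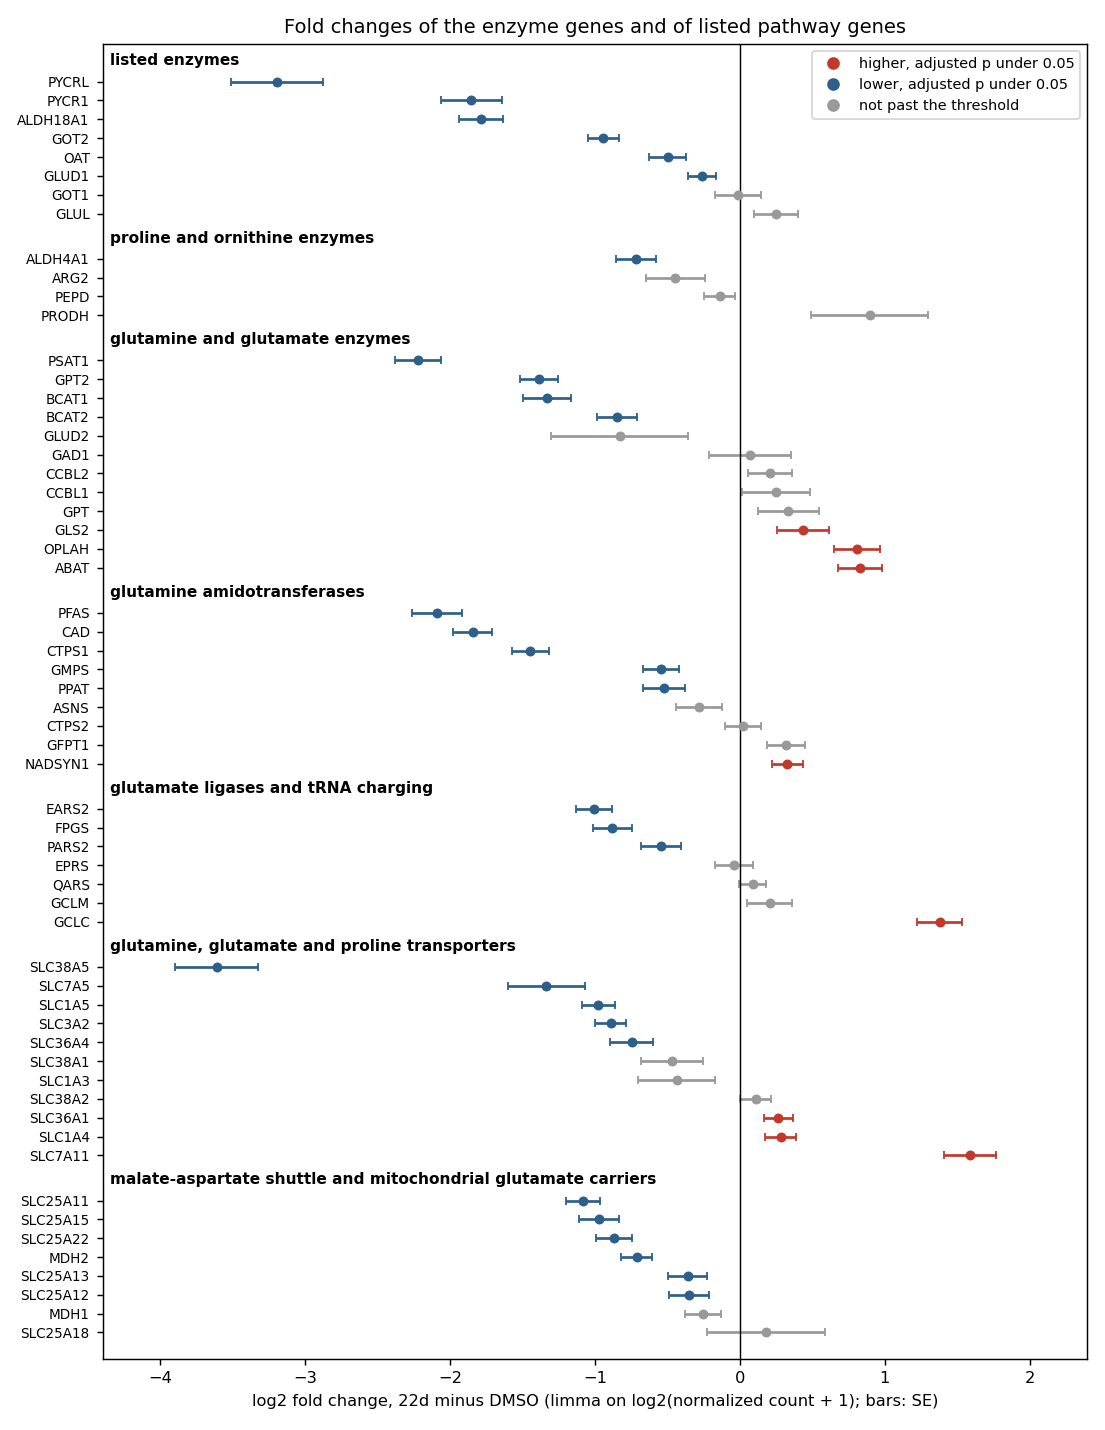
Log2 fold change of 22d minus DMSO (x axis; limma on log2(normalized count + 1), bars are SE, n = 3 each) for the 8 enzyme genes at the top and the 51 other tested pathway genes by list. Red points were higher and blue points lower at an adjusted p under 0.05, and grey points did not pass; PYCRL at -3.20 and SLC38A5 at -3.61 lie furthest to the left.

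The genes with the most similar profiles were sought among 10136 other genes averaging 100 normalized counts or more, by the root mean square distance of centred log2 values over the 6 libraries. For PYCRL they were HPDL, at a distance of 0.26, and SLC38A5, at 0.30. HPDL held 46.9, 135 and 145 normalized counts with 22d, against 1237, 1212 and 1209.96 with DMSO. Its low value in 22d replicate 1 goes with its choice by likeness over these same libraries. The profile of PYCR1 was nearest to those of NRGN (0.04) and DNPH1 (0.07), and that of ALDH18A1 to those of TOMM5 and MRPL12 (0.05 each). GLUL was nearest to ACACB and ATXN2 (0.06 each), and GOT1 to ATG10 and WASF2 (0.05 each). These distances describe 6 libraries and carry no test.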

How the data were processed

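RNA-seq of 3 libraries with 22d and 3 with DMSO was analysed from 1 deposited table. Per the labels' protocols, column-purified RNA freed of genomic DNA went into a NEBNext Ultra kit. The submitters' processing notes name cutadapt, FastQC, HTSeq, STAR and DESeq2, and build hg38. Versions, annotation and strand setting are not given in the sources used here. Its values per library are a normalized signal, per the file headers. The deposited table also gives the authors' log2 fold change with its error, a test score, and a p-value with its adjusted p-value. Arm and number in the column names gave each column its library. The signal is a read count divided by 1 size factor per library: after multiplication, 100% of values lay within 0.001 of a whole read, and these reads were recovered.

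Limma-trend was run on log2(value + 1) for 13297 genes, those averaging 10 or more, without a block, with Benjamini-Hochberg adjustment over all of them. Depth was 19995430 to 23749257 reads per library. Exon lengths and overlaps come from GENCODE 29, coordinates and promoters from RefSeq. The annotation used by the authors may differ. R 4.3.3, limma 3.58.1, edgeR 4.0.16, DESeq2 1.42.0, Python 3.11.15 and matplotlib 3.10.9 were used. On the recovered reads edgeR's quasi-likelihood test called 7723 genes and DESeq2 7537, against 7718 by limma. The limma script was tested on simulated data.

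The enzyme genes, pathway lists and motifs were chosen with earlier results of these data known. Named genes are the 8 enzymes, every tested gene of the proline and glutamate enzyme lists except some that are not reported here and are left out of the lists' counts, and the 3 largest called changes of each other list, plus the 2 nearest profiles of 5 enzymes. Alternatives covered pseudocounts, filters, scalings, tools, a replicate block and leaving out each library. Gene names that the table does not hold (KYAT1, KYAT3) were matched by older symbols (CCBL1, CCBL2). MDH1, MDH2, MYC, DDIT3, LYZ, PTPRC, FLT3, MPO and PECAM1 were named after their values were seen.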

Additional observations from a re-analysis of the deposited data

How the results depend on the processing

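Of 46 named genes, 30 kept their direction and their side of the threshold in every alternative, and PYCR1, PYCRL, ALDH18A1 and GOT2 are among them. Part of the 46 were named for large called changes or for likeness to an enzyme gene. The 8 enzymes were themselves selected on this comparison. The number 30 therefore partly follows from the choice of genes and carries no weight as a measure of stability. The number of enzyme genes called higher, 0, was 1 (GLUL) with scaling by library totals and with quantile normalization, and 0 to 1 with 1 library left out; the number called lower, 6, was 4 with scaling by library totals and 5 to 6 with 1 library left out. Of the other pathway genes, 15 were called higher with scaling by library totals, 5 with the replicate block and 4 to 8 with 1 library left out, against 8. Scaling by library totals shifted the overall median to 0.22 in log2 units, and 65.6% of its calls were higher, against 49.0% as reported. Directions reversed only near 0: GLUD1 was 0.051 with quantile normalization; GOT1 was 0.21 with library totals, 0.018 with TMM scaling, 0.027 with edgeR and 0.0065 with DESeq2; PEPD was 0.081 with library totals and 0.14 with quantile normalization; GAD1 and ATG10 were -0.19 and -0.14 with quantile normalization. With 1 library left out, GOT1 ranged from -0.15 to 0.088, GAD1 from -0.079 to 0.21, ATG10 from -0.077 to 0.12 and WASF2 from -0.12 to 0.073. The cause was not tested. Libraries with the same number in both groups did not deviate together (r of -0.025, -0.018 and -0.10 across genes), so the numbers gave no sign of a pairing. Between libraries of different number r ran from -0.11 (22d replicate 1 with DMSO replicate 2) to 0.17 (22d replicate 3 with DMSO replicate 2). With the replicate block 7419 genes were called, and GLUD1 and GLS2 were no longer called. For scarce genes such as PRODH, depth limits what could be detected.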
